A study of Mus musculus with 6 samples.

Results

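RNA-seq levels of 34 genes of glycolysis and the pentose phosphate pathway were followed in mouse peritoneal macrophages, the phagocytes that can be washed from the belly cavity. The members were the rows of the deposited table of 54532 genes whose symbol is in a chosen list. That list holds glucose and lactate carriers, glycolytic enzymes and regulators, lactate or pyruvate dehydrogenase-related enzymes and pentose phosphate enzymes. It does not hold every gene of these kinds. The 34 members fill 35 rows, because Aldoa is listed under 2 identifiers. All cells were wild type and came from male C57BL/6J mice of 6 to 8 weeks, which had received 3% thioglycolate into the peritoneum 5 days before, an irritant that recruits monocytes, which become macrophages. Control cells were left untreated. For Model, cells were primed for 5.5 h with LPS at 500 ng/mL, an endotoxin of Gram-negative bacteria, and then given 2 mM ATP for 0.5 h, a combination that activates the NLRP3 inflammasome. For MUS, the stimulation was identical and cells were also given, 5 h after LPS and 0.5 h before ATP, 50 µM muscone, a macrocyclic ketone that is the main odorant of musk. Each group had 2 libraries of poly-A RNA. The labels give replicate numbers as batches, and they do not say whether replicates came from separate mice or cultures, so p-values measure only the spread between these libraries.

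The libraries held between 15526321 and 17135442 fragments on genes. Model replicate 1 stood apart, with at least 1 fragment on 24906 genes against 17406 to 19200 in the other 5 libraries. Il1b, Il6 and Tnf, cytokine genes that LPS induces, were upregulated in Model vs. Control by 9.67, 8.82 and 4.89 on the log2 scale, with adjusted p-values of 0.00488, 0.000504 and 0.033. Control replicate 2 had higher levels of such genes than Control replicate 1, with 34.2 against 0.550 FPKM of Il1b and 183 against 8.62 FPKM of Tnf. All 7 macrophage markers had a mean of at least 1 FPKM, with summed levels of 8426 to 13340 FPKM. The lists of B cell, T and innate lymphocyte, mast cell and mesothelial markers each summed to at most 1.59 FPKM in every library, and all 4 hemoglobin genes of the red cell list were at 0. Of 6 neutrophil markers, S100a8 and Mmp8 had a mean of at least 1 FPKM, while Ly6g, Retnlg and S100a9 were at 0 in all libraries. The summed neutrophil list was 20.3 to 34.1 FPKM in Control, 60.2 to 113 in Model and 54.7 to 68.7 in MUS, and its part in the results below was not tested. Of 4 eosinophil markers, Ear6, Epx and Prg2 were at 0 throughout, and the summed list was 2.46 to 4.06 FPKM in Control, 1.23 to 1.52 in Model and MUS. Sequence shared with other genes was not examined for the markers, so a level of 0 does not show that a cell type was absent. In such bulk samples fewer cells of a type and less RNA per cell cannot be told apart.

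Glycolysis splits glucose into pyruvate in the cytosol and yields ATP without oxygen. Its flow is set mainly at glucose entry, at hexokinase, at phosphofructokinase and at the export of lactate. Most of the steps between, but not all, are near equilibrium and shared with the building of sugars. The pentose phosphate pathway branches off at glucose 6-phosphate. Its oxidative arm makes NADPH, which the NADPH oxidase and the glutathione system use, and its non-oxidative arm makes ribose and returns carbon to glycolysis. Macrophages exposed to LPS are known for taking up more glucose and releasing more lactate.

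Promoter sequences of members that moved and of members that did not are shown first, because many glycolytic genes are textbook targets of factors that read short motifs near the start site. RefSeq windows of build GRCm38.p6, from 250 bases before to 50 after a start site, were found for 33 of the 34 members. The motifs searched on both strands were ACGTG, the core of the hypoxia response element, and CACGTG, the E-box, which holds ACGTG on either strand. At least 1 window held ACGTG in 17 of the 33 members (51.5%) and in 23.2% of 17492 protein-coding genes. CACGTG was present in 4 of the 33 members (12.1%) and in 8.91% of protein-coding genes. The upstream 250 bases follow, 5′ to 3′ on the strand of the gene, with each match to ACGTG or its reverse complement in capitals. Hk2, Pfkfb3 and Slc16a1 are shown as genes that were upregulated in Model vs. Control, Ldha as the gene with the most matches, and Gpi1 as a downregulated gene without a match.
Hk2, chr6:82774455-82774704, minus strand: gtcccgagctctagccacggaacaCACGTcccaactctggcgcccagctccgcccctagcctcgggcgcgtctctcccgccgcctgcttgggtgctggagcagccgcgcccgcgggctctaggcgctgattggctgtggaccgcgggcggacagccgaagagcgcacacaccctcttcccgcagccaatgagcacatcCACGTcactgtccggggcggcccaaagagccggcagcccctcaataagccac
Pfkfb3, chr2:11502091-11502340, minus strand: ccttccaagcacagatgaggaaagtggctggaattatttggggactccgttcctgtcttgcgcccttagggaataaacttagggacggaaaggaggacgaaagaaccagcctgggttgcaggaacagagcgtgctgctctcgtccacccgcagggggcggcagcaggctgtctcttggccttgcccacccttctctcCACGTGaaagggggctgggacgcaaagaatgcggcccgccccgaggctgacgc
Slc16a1, chr3:104638414-104638663, plus strand: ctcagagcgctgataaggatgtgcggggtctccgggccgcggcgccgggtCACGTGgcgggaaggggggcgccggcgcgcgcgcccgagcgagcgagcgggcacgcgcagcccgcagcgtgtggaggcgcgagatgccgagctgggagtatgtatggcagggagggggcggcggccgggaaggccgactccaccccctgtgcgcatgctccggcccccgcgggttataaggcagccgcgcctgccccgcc
Ldha, chr7:46845554-46845803, plus strand: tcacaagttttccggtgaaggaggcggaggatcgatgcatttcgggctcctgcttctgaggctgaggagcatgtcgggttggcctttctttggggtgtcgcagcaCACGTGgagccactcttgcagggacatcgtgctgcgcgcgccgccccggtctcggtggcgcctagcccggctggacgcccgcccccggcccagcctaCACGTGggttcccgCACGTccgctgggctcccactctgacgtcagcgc
Gpi1, chr7:34230337-34230586, minus strand: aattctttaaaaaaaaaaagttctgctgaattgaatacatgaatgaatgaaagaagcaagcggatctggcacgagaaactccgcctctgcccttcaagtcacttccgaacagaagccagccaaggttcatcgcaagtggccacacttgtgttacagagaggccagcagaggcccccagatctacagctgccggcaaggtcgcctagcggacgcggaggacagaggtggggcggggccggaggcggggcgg
Of the 4 members upregulated in Model vs. Control, Hk2, Pfkfb3 and Slc16a1 had a window with ACGTG and Rpe had none. Of the 2 downregulated members, G6pdx had a window with it, downstream of the start site, and Gpi1 had none. Of the 24 tested members that were no DEGs, 10 had a window with ACGTG, among them Slc2a1, Hk3, Pgk1, Pkm and Aldoa. In Model vs. Control, the median log2 fold change came to 0.19 over the 14 tested members with ACGTG and -0.52 over the 16 without it. Ldha, with 5 matches in the window shown, was not a DEG. A match is a description of letters and not a binding site. The same split was not made over all genes tested, so whether the motif goes with a change was not tested.

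Model vs. Control asked how LPS and ATP changed the pathway. Of the 34 members, 30 had a mean of at least 1 FPKM and were tested. FPKM are fragments per kilobase of gene on a per-million scale of each library, so that levels can be set side by side between genes. The deposited scale was not the fragment total. It was 1.45 and 1.34 times that total in the Control libraries and 0.909 to 0.998 times in the Model and MUS libraries. DEGs, which had to pass an adjusted p limit of 0.05 and change by more than 1 on the log2 scale, comprised 4 upregulated members (Pfkfb3, Slc16a1, Hk2 and Rpe) and 2 downregulated members (Gpi1 and G6pdx). Over all 9794 genes tested, 930 (9.50%) were upregulated and 545 (5.56%) downregulated. The members' shares, 4 of 30 and 2 of 30, thus lay close to the background. All fold changes here are of log2(FPKM + 1), which understates the change of low genes. The 2 Model libraries were both above the 2 Control libraries for 9 members and both below for 15, against 32.6% and 28.5% of all genes tested. The median log2 fold change was -0.36 over the members and 0.04 over all genes, and 12 members were above 0 and 18 below. Differences within each batch had the same sign in both batches for 26 members, 10 above 0 and 16 below, and unlike signs for 4.

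**Figure D1:**
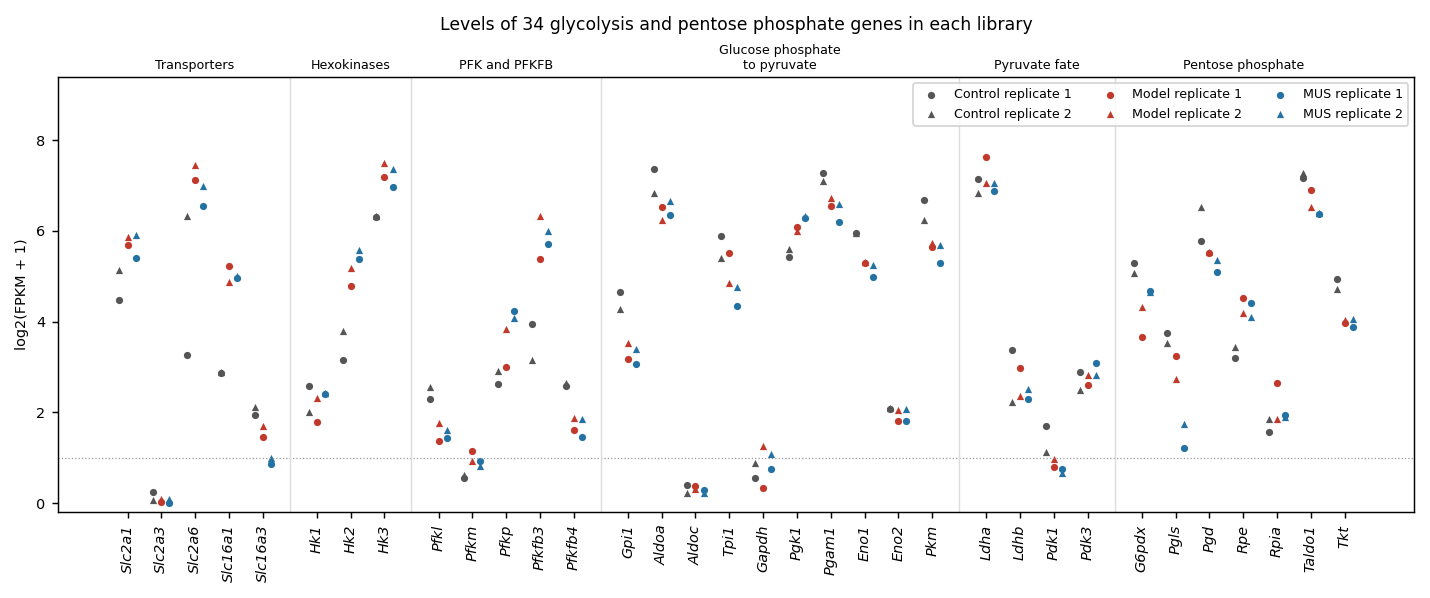
Level of each of the 34 members in each library, as log2(FPKM + 1) on the vertical axis, with genes grouped by role on the horizontal axis (the Aldoa row that holds nearly all its fragments is shown). Points are single libraries, with circles for replicate 1 and triangles for replicate 2, grey for Control, red for Model and blue for MUS, and the dotted line is 1 FPKM. Slc2a6, Slc16a1, Hk2, Hk3 and Pfkfb3 sit higher in all Model and MUS libraries than in Control, whereas Gpi1, Eno1, Pkm, G6pdx, Taldo1 and Tkt sit lower.

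Among the carriers, Slc16a1 (MCT1, ENSMUSG00000032902, chr3:104638668-104658462, plus strand), a proton-coupled carrier of lactate and pyruvate, had the clearest change. Its level was 6.26 and 6.43 FPKM in the Control libraries, 36.2 and 28.2 in the Model libraries and 30.3 and 31.0 in the MUS libraries. All 4 stimulated libraries were thus above both Control libraries, which differed little. The mean was 5.08 times higher in Model (log2 fold change 2.17, SE 0.25, adjusted p = 0.00325), and the DEG call held in all 19 alternative analyses. The related carrier Slc16a3 (MCT4, ENSMUSG00000025161, chr11:120948480-120960868, plus strand), the lactate exporter of glycolytic cells, had 2.84 and 3.34 FPKM under Control, 1.73 and 2.23 under Model and 0.821 and 0.996 under MUS conditions. Its libraries did not overlap between any groups, with Control highest and MUS lowest. It was not a DEG in Model vs. Control (log2 fold change -0.46, SE 0.22, adjusted p = 0.187).

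Slc2a1 (GLUT1), the main glucose importer of stimulated macrophages, had 21.2 and 33.996 FPKM in the Control libraries, 51.1 and 57.3 in the Model libraries and 41.2 and 59.1 in the MUS libraries. Both Model libraries were above both Control libraries, but the difference did not pass the test (log2 fold change 0.98, SE 0.34, adjusted p = 0.0909). Slc2a6 (GLUT6, ENSMUSG00000036067, chr2:27021363-27027998, minus strand), a hexose carrier of lysosomal membranes, had 8.64 and 80.1 FPKM under Control, 138 and 174 under Model and 93.4 and 126 under MUS conditions. Control replicate 2, the library with the higher Il1b and Tnf, lay much nearer to the stimulated libraries than to Control replicate 1. Slc2a6 had the largest log2 fold change of the members in this comparison, 2.48, but with an SE of 0.87, and it was not a DEG (adjusted p = 0.0963). With the replicate number as a block Slc2a6 was a DEG (adjusted p = 0.0394), which made 5 upregulated members in place of 4, and its differences within batches 1 and 2 were 3.85 and 1.11. Without Control replicate 2 both Slc2a6 and Slc2a1 were DEGs, with adjusted p-values of 0.00101 and 0.0384. Slc2a3 (GLUT3), a high-affinity glucose carrier, was at 0 to 0.187 FPKM, from 0 to 31 fragments, and was not tested. A count of 0 allows up to 3 fragments.

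The hexokinases, which trap glucose by phosphorylation, were dominated by Hk3, an isoenzyme of leukocytes. Hk3 had 78.6 and 79.2 FPKM in the Control libraries, 144 and 181 in the Model libraries and 124 and 164 in the MUS libraries. Control libraries were nearly equal and lay below all stimulated libraries, but with an adjusted p of 0.0691 (log2 fold change 1.02, SE 0.32) it was not a DEG. Hk2 (ENSMUSG00000000628, chr6:82725025-82774454, minus strand), the inducible isoenzyme that can bind mitochondria, had 7.88 and 12.9 FPKM under Control, 26.5 and 35.5 under Model and 40.8 and 47.1 under MUS conditions. The groups did not overlap and followed the order Control, Model, MUS. Its mean was 2.99 times higher in Model than in Control (log2 fold change 1.51, SE 0.32, adjusted p = 0.0212), with differences of 1.63 and 1.40 within the batches. Hk1, the housekeeping isoenzyme, was at 2.43 to 4.95 FPKM with overlapping groups.

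Phosphofructokinase commits sugar to glycolysis and is switched on by fructose 2,6-bisphosphate, which the PFKFB enzymes make and break. Pfkfb3 (ENSMUSG00000026773, chr2:11471433-11554077, minus strand), the PFKFB enzyme that strongly favours synthesis of this activator, had 14.5 and 7.90 FPKM in the Control libraries, 40.6 and 79.3 in the Model libraries and 51.5 and 63.3 in the MUS libraries. All stimulated libraries were above both Control libraries. The mean was 5.34 times higher in Model (log2 fold change 2.30, SE 0.42, adjusted p = 0.0136), and the differences within the batches were 1.42 and 3.17. Without Model replicate 2 its adjusted p was 0.05, just past the limit (log2 fold change 1.82), and without a filter on low values it was 0.096. Its relative Pfkfb4 was lower in all stimulated libraries, with 5.02 and 5.24 FPKM in Control libraries, 2.06 and 2.67 in those of Model and 1.74 and 2.59 in those of MUS. Its adjusted p was 0.0411, but the log2 fold change of -0.87 (SE 0.23) was under the size limit.

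Of the phosphofructokinases themselves, Pfkl, the liver-type subunit, had 3.93 and 4.87 FPKM under Control, 1.57 and 2.40 under Model and 1.71 and 2.04 under MUS conditions. It had an adjusted p of 0.0461 and a log2 fold change of -0.86 (SE 0.23), under the size limit as well. Pfkp (ENSMUSG00000021196, chr13:6579768-6648777, minus strand), the platelet-type subunit, had 5.19 and 6.50 FPKM in the Control libraries, 6.97 and 13.4 in the Model libraries and 17.8 and 15.9 in the MUS libraries. Model replicate 1 was barely above Control, and the log2 fold change of 0.65 (SE 0.32) in Model vs. Control did not pass the test (adjusted p = 0.199). Pfkm, the muscle-type subunit, was at 0.458 to 1.21 FPKM, from 35 to 57 fragments, and was not tested.

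**Figure D2:**
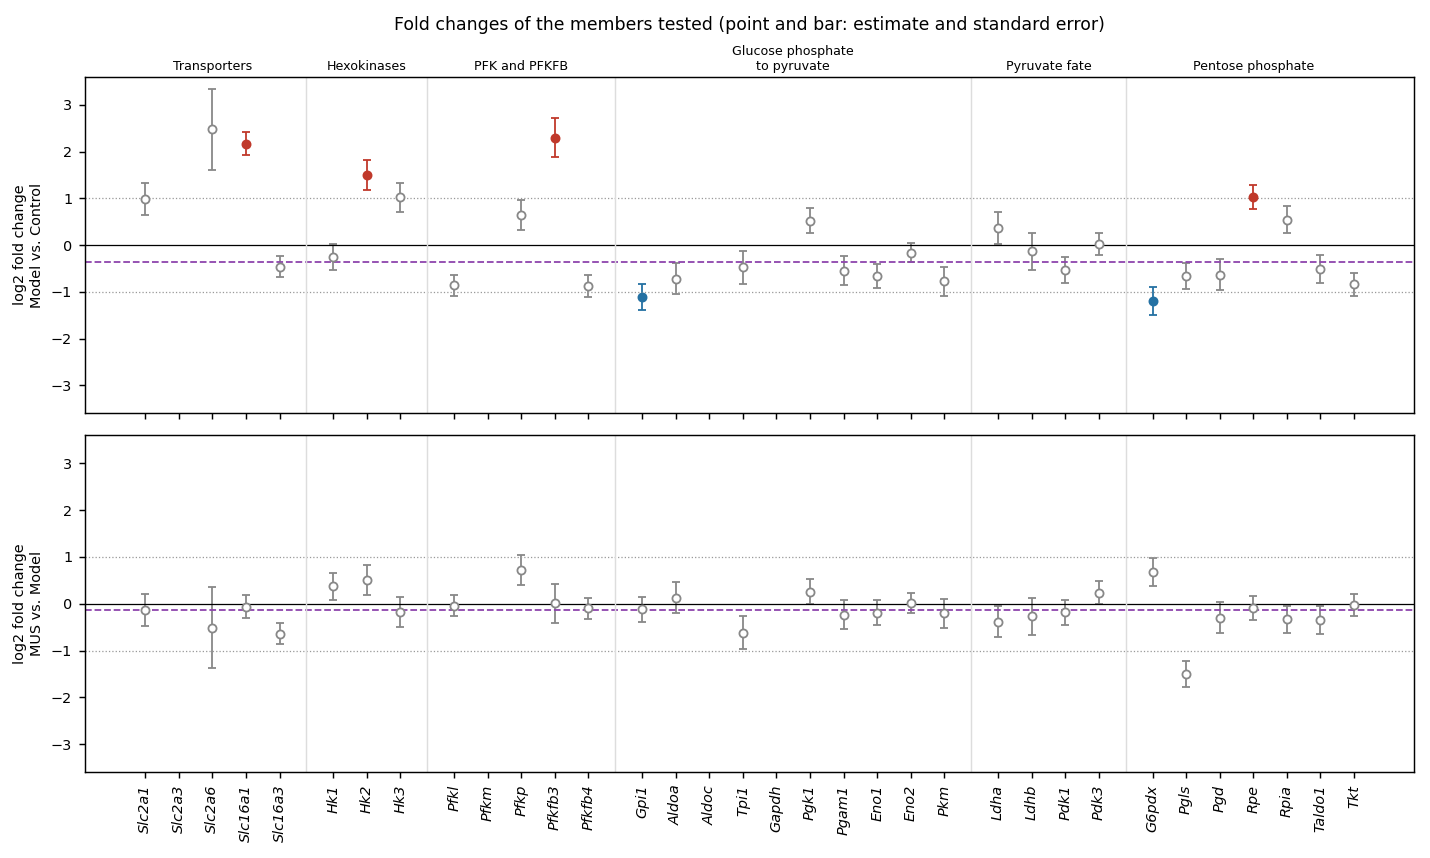
Log2 fold change of the 30 tested members in Model vs. Control (top) and MUS vs. Model (bottom), with genes grouped by role on the horizontal axis. Points and bars are estimates and standard errors, filled red points are upregulated DEGs and filled blue points downregulated DEGs, dotted lines mark the size limit of 1 and the dashed line marks the members' median. In the upper panel Slc16a1, Hk2, Pfkfb3 and Rpe are filled above 1 and Gpi1 and G6pdx below -1, and in the lower panel no point is filled.

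Of the 8 enzymes tested between glucose 6-phosphate and pyruvate, only Gpi1 was a DEG in Model vs. Control. Their median log2 fold change was -0.60, against 0.04 over all genes, and both Model libraries were below both Control libraries for 6 of the 8, where 28.5% of all genes tested were so placed. Gpi1 (ENSMUSG00000036427, chr7:34201330-34230336, minus strand), which turns glucose 6-phosphate into fructose 6-phosphate, had 24.3 and 18.3 FPKM under Control, 8.06 and 10.5 under Model and 7.36 and 9.53 under MUS conditions. Control was about 2.30 times the level of Model (log2 fold change -1.11, SE 0.27, adjusted p = 0.0326), with differences of -1.48 and -0.75 within the batches. Pkm, the pyruvate kinase that makes the last ATP of the pathway, had 102 and 74.6 FPKM in the Control libraries, 49.3 and 52.2 in the Model libraries and 38.2 and 50.9 in the MUS libraries. All stimulated libraries were below Control, with a log2 fold change of -0.77 (SE 0.31) in Model vs. Control that did not pass the test (adjusted p = 0.132). Aldoa (aldolase), Pgam1 (phosphoglycerate mutase), Eno1 (enolase) and Tpi1 (triosephosphate isomerase) had log2 fold changes of -0.72, -0.55, -0.66 and -0.47 with adjusted p-values of 0.176, 0.249, 0.132 and 0.379. Pgk1, the phosphoglycerate kinase, was the exception with 42.2 and 47.8 FPKM under Control, 66.9 and 63.1 under Model and 77.5 and 79.0 under MUS conditions. Its libraries rank Control, Model, MUS without overlap, yet the log2 fold change of 0.52 (SE 0.27, adjusted p = 0.219) did not pass the test and was below 0 under 3 other scalings. Eno2, the neuron-type enolase, was at 2.50 to 3.27 FPKM and was no DEG either.

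Gapdh, the glyceraldehyde 3-phosphate dehydrogenase that is commonly used as a reference gene, was listed at 0.466 and 0.835 FPKM in the Control libraries, 0.257 and 1.39 in the Model libraries and 0.672 and 1.12 in the MUS libraries. These levels rest on 44, 79, 15, 89, 42 and 75 fragments and were too low for the filter, whereas Pgk1, the next enzyme, had 2119 to 2878 fragments. The Gapdh row (ENSMUSG00000057666, chr6:125161715-125166467, minus strand) was also the member whose sequence is most often found elsewhere. Of the 50-base stretches of its 1272-base transcript Gapdh-201, 90.4% occur in transcripts of another gene, and the copies include 213 pseudogenes. The stretch of its coding sequence printed here, bases 507 to 556 of that transcript, is present in 84 other annotated genes, 80 of them pseudogenes.
Gapdh: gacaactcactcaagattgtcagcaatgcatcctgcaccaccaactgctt
High shares were also found for Eno1 (72.2%, mainly Eno1b), Pgk1 (68.0%), Pgam1 (41.5%), Pkm (34.4%), Ldhb (27.01%) and Gpi1 (25.3%), in each case of the principal transcript. Fragments of such genes can be split or dropped in counting, so the levels of these 7 members are uncertain, and how many fragments were lost was not tested. Eno1b itself was listed at 13.8 and 10.2 FPKM under Control, 4.32 and 8.15 under Model and 4.90 and 8.09 under MUS conditions. By contrast 16 members had no stretch of the principal transcript in another gene, among them Slc16a1, Slc16a3, Slc2a6, Hk2, Hk3, Pfkfb4, Tkt and Pgls. Over all its transcripts, however, Pgls shares 18.85% of its stretches with Fam129c, which overlaps it on the same strand. Fam129c was listed at 0.127 to 0.516 FPKM. Of the stretches of the principal transcript, Pfkp shares 17.1% with Pitrm1, G6pdx 10.7% with genes that include Ikbkg, and Rpe 19.3% with Kansl1l, genes that overlap or adjoin them, and reads there cannot be told apart without strand.

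Pyruvate can be turned to lactate or enter mitochondria. Ldha, the lactate dehydrogenase subunit that favours lactate, had the highest listed mean level of the members. That rank takes Gapdh and the other members with much shared sequence at their listed levels, which are uncertain. Of the principal transcript of Ldha itself, 17.1% of the stretches occur in transcripts of another gene. Ldha had 142 and 113 FPKM in the Control libraries, 197 and 133 in the Model libraries and 117 and 133 in the MUS libraries. The groups overlapped, and the log2 fold change of 0.36 (SE 0.34, adjusted p = 0.496) in Model vs. Control was below 0 under 3 other scalings. Pdk1, a kinase that switches off pyruvate dehydrogenase, had 2.23 and 1.19 FPKM under Control, 0.738 and 0.954 under Model and 0.672 and 0.594 under MUS conditions. Both Model libraries were below Control, but Control replicates differed by more than the gap between groups and the difference did not pass the test (log2 fold change -0.53, SE 0.27, adjusted p = 0.211). Pdk3 (4.64 to 7.49 FPKM) and Ldhb, the heart-type lactate dehydrogenase subunit (3.67 to 9.30 FPKM), had overlapping groups and were no DEGs.

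Of the 7 pentose phosphate genes, 1 was upregulated and 1 downregulated in Model vs. Control. Their median log2 fold change was -0.63, against 0.04 over all genes, and both Model libraries were below both Control libraries for 5 of the 7, against 28.5% of all genes tested. G6pdx (ENSMUSG00000031400, chrX:74409483-74429194, minus strand), the glucose 6-phosphate dehydrogenase that opens the oxidative arm, had 38.4 and 32.9 FPKM in the Control libraries, 11.6 and 19.0 in the Model libraries and 24.7 and 24.2 in the MUS libraries. The MUS libraries lay between those of the other groups. In Model vs. Control G6pdx was downregulated (log2 fold change -1.20, SE 0.30, adjusted p = 0.0361), with differences of -1.65 and -0.76 within the batches. Pgls (ENSMUSG00000031807, chr8:71592176-71601092, plus strand), the lactonase of the next step, had 12.5 and 10.6 FPKM under Control, 8.48 and 5.62 under Model and 1.32 and 2.35 under MUS conditions. Its groups ranked Control, Model, MUS without overlap, and the log2 fold change of -0.66 (SE 0.28) in Model vs. Control did not pass the test (adjusted p = 0.151). Pgd, which makes the other NADPH of the oxidative arm, had 53.9 and 91.0 FPKM in the Control libraries, 44.7 and 45.3 in the Model libraries and 33.1 and 40.2 in the MUS libraries. Its log2 fold change was -0.63 (SE 0.33, adjusted p = 0.231).

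In the non-oxidative arm, the transketolase gene Tkt had 29.6 and 25.4 FPKM under Control, 14.6 and 15.3 under Model and 13.7 and 15.7 under MUS conditions. Model and MUS libraries were close together and below Control. In Model vs. Control the adjusted p of 0.0547 narrowly missed its limit, and the log2 fold change of -0.84 (SE 0.24) was under the size limit. Taldo1, the transaldolase, had 144 and 154 FPKM in the Control libraries, 119 and 91.4 in the Model libraries and 81.6 and 82.8 in the MUS libraries. The difference between Model and Control was -0.51 on the log2 scale (SE 0.30, adjusted p = 0.276). Rpe (ENSMUSG00000026005, chr1:66700831-66719805, plus strand), the ribulose-phosphate epimerase, moved the other way with 8.25 and 9.87 FPKM under Control, 21.8 and 17.3 under Model and 20.4 and 16.2 under MUS conditions. It was upregulated in Model vs. Control (log2 fold change 1.03, SE 0.26, adjusted p = 0.0366), just over the size limit, and stayed a DEG in 6 of 19 alternative analyses. Rpia, the ribose-phosphate isomerase, was at 1.96 to 5.25 FPKM with overlapping groups.

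These calls rest on few libraries. Leaving out a library left 1 in its group. In Model vs. Control more members were called without Control replicate 2 than in the reported fit, and fewer without any other library. Over all genes tested the number called moved the same way each time. The members' median log2 fold change was then -0.41 to -0.19, against 0.02 to 0.06 over all genes. Slc16a1 was called in all 19 alternatives, and the calls of Hk2, Gpi1 and G6pdx held in 10, 12 and 13 of them. The number of downregulated members, 2 in the reported fit, was also 2 with TMM scaling and with the gene-length correction. It was 9 with quantile normalization and 13 with a scale without mitochondrial and top 20 genes. Over all genes tested, the downregulated were 545 in the reported fit, 637 with TMM scaling and 803 with the gene-length correction. They were 715 with quantile normalization and 1776 with the scale without top genes. When libraries were scaled to their fragment totals, the median of all genes fell to -0.40 and that of the members to -0.77. With that scale 12 members were downregulated and 2 upregulated, beside 1530 and 641 of all genes tested. The members' median minus that of all genes was -0.37 there and -0.40 in the reported fit. Upregulated genes made up 63.1% of all DEGs in the reported fit, 49.7% after quantile normalization, 50.7% after correction for gene length, 29.5% with fragment totals and 24.8% when mitochondrial and the top 20 genes were left out of the scale.

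**Figure D3:**
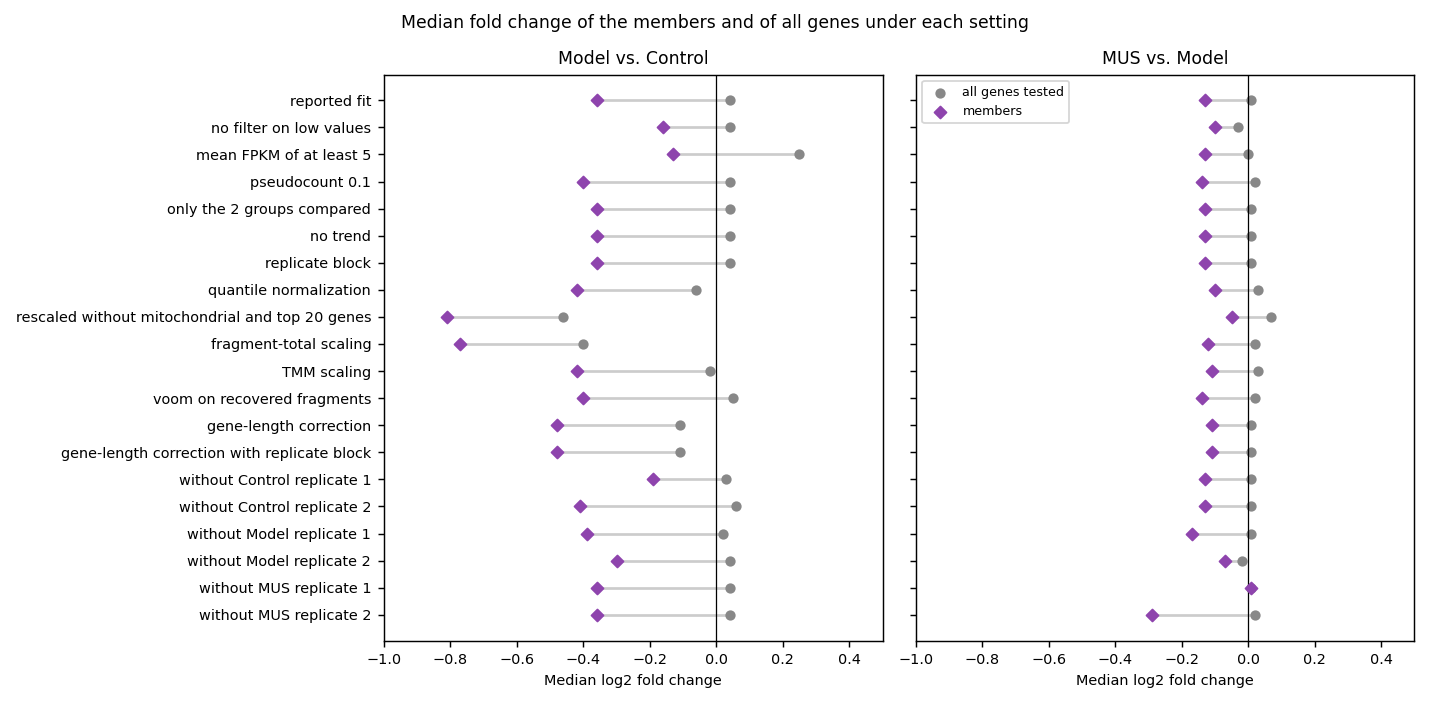
Median log2 fold change of the members (purple diamonds) and of all genes tested (grey circles) on the horizontal axis, for the reported fit and each alternative on the vertical axis, in Model vs. Control (left) and MUS vs. Model (right). In Model vs. Control the members' median lies to the left of that of all genes in every setting, between -0.81 and -0.13, and both shift left under the scalings by fragment totals and without the top genes.

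MUS vs. Model asked what muscone added to LPS and ATP. By limma, none of the 9794 genes tested was a DEG (0%), and so no gene of the pathway was, while 256 genes (2.61%) were higher and 569 (5.81%) lower at an unadjusted p under 0.05. Of the members, Pgls and Slc16a3 were lower in MUS by that measure and none was higher. On fragments recovered from the table and fitted with voom, 0 members and 0 genes were DEGs as well. The count over all genes was not 0 in every alternative, with 19 genes higher and 12 lower without Model replicate 2, 4 higher and 1 lower when either Control replicate was left out, 5 higher and 2 lower with only the compared groups fitted and 2 higher and 2 lower with the replicate block. A pseudocount of 0.1 and the gene-length correction gave 1 gene each, and no member was among any of these. Pgls, at 8.48 and 5.62 FPKM in Model against 1.32 and 2.35 in MUS, had a log2 fold change of -1.51 (SE 0.28, adjusted p = 0.277). It was lower in MUS in both batches, by -2.03 and -0.98. Its Model libraries held 451 and 328 fragments and its MUS libraries 75 and 144. For Slc16a3, with 130 and 184 fragments in Model against 66 and 86 in MUS, the log2 fold change was -0.64 (SE 0.22, adjusted p = 0.475), and the batches differed by -0.59 and -0.70.

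The median log2 fold change of the members in MUS vs. Model was -0.13, against 0.01 over all genes, and was 0.01 without MUS replicate 1 and -0.29 without MUS replicate 2. Both MUS libraries were above both Model libraries for 5 members and below for 9, where 21.2% and 21.0% of all genes tested were so placed. Hk2, Pfkp and G6pdx were among those above, with log2 fold changes of 0.50, 0.73 and 0.68 (SE 0.32, 0.32 and 0.30) and adjusted p-values of 0.734, 0.607 and 0.617. Signs were not stable, since 14 of the 30 members changed sign in at least 1 alternative. No permutation test was run, and with 2 libraries against 2 an exact one cannot give a p under 0.33 for a single gene. The limma fit is not bound by that limit, and with the same group sizes it called 930 genes upregulated and 545 downregulated in Model vs. Control.

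MUS vs. Control compared the same Control libraries with the muscone group and so shares them with Model vs. Control. DEGs comprised 4 upregulated members (Pfkfb3, Slc16a1, Hk2 and Pfkp) and 3 downregulated members (Pgls, Gpi1 and Slc16a3), against 1107 (11.3%) and 873 (8.91%) of all genes tested. The log2 fold changes in Model vs. Control and in MUS vs. Control were 2.30 and 2.30 for Pfkfb3, 2.17 and 2.11 for Slc16a1, 1.51 and 2.01 for Hk2, and 0.65 and 1.39 for Pfkp. They were -0.66 and -2.17 for Pgls, -1.11 and -1.24 for Gpi1, and -0.46 and -1.10 for Slc16a3. The adjusted p-values in MUS vs. Control were 0.0106, 0.00311, 0.00687 and 0.0228 for the upregulated genes in that order and 0.00407, 0.0189 and 0.0138 for the downregulated ones. Pgls was the largest decrease, with a Control mean 6.31 times that of MUS. G6pdx, a DEG in Model vs. Control, was not one here (log2 fold change -0.52, SE 0.30, adjusted p = 0.24), and the difference between MUS and Model did not pass its own test either. Pfkfb4 and Pfkl had log2 fold changes of -0.97 and -0.91 with adjusted p-values of 0.0243 and 0.0322, again under the size limit. Fewer members were DEGs without MUS replicate 1 or MUS replicate 2, and more without Control replicate 2. Over all genes tested the number of DEGs moved the same way. The members' median log2 fold change was -0.37, -0.51 and -0.59 in these 3 fits, against -0.46 in the reported fit. Upregulated genes made up 55.9% of all DEGs in this comparison, 44.5% after quantile normalization, 45.3% after correction for gene length, 27.7% with fragment totals and 26.9% without mitochondrial and top genes in the scale.

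Shares among isoenzymes do not depend on how libraries are scaled. Only members were summed, so other genes of a family are left out. Pfkfb3 made up 74.3% and 60.1% of the summed FPKM of Pfkfb3 and Pfkfb4 in the Control libraries, 95.2% and 96.7% in the Model libraries and 96.7% and 96.1% in the MUS libraries. Slc16a1 made up 68.8% and 65.8% of its pair with Slc16a3 without stimulation, 95.4% and 92.7% in the Model libraries and 97.4% and 96.9% in those of MUS. The related carrier Slc16a7, not a member and not in this sum, had 3.42 and 2.39 FPKM in the Control libraries and 0.512 to 0.816 in the others. In both pairs the groups of Control and of stimulated libraries did not overlap. Pfkp had 54.2% and 54.6% of the phosphofructokinase sum under Control, 71.5% and 80.2% under Model and 87.2% and 85.0% under MUS conditions, at the expense of Pfkl. Hk2 held 8.62% and 13.5% of the hexokinase sum in the Control libraries, 15.3% and 16.1% in the Model libraries and 24.1% and 21.9% in the MUS libraries, while Hk3 kept 73.4% to 86.0% in every library. Pdk1 made up 25.9% and 20.4% of its pair with Pdk3 without stimulation, 12.7% and 13.6% in the Model libraries and 8.23% and 8.92% in those of MUS. Pdk2, which is not a member, had 2.36 and 0.580 FPKM under Control and 0.0195 to 0.0837 FPKM in the Model and MUS libraries. Its mean was under the filter, so it was not tested. For the glucose carriers the Control libraries differed more than the groups, with Slc2a6 at 28.8% and 70.2% under Control, 73.0% and 75.2% under Model and 69.4% and 68.1% under MUS conditions. The other pairs had 1 dominant gene in all libraries, as Aldoa, Eno1 and Ldha made up at least 99.7%, 92.0% and 93.8% of their sums with Aldoc, Eno2 and Ldhb. The second Aldoa row (ENSMUSG00000114515) held 0 to 3 fragments.

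**Figure D4:**
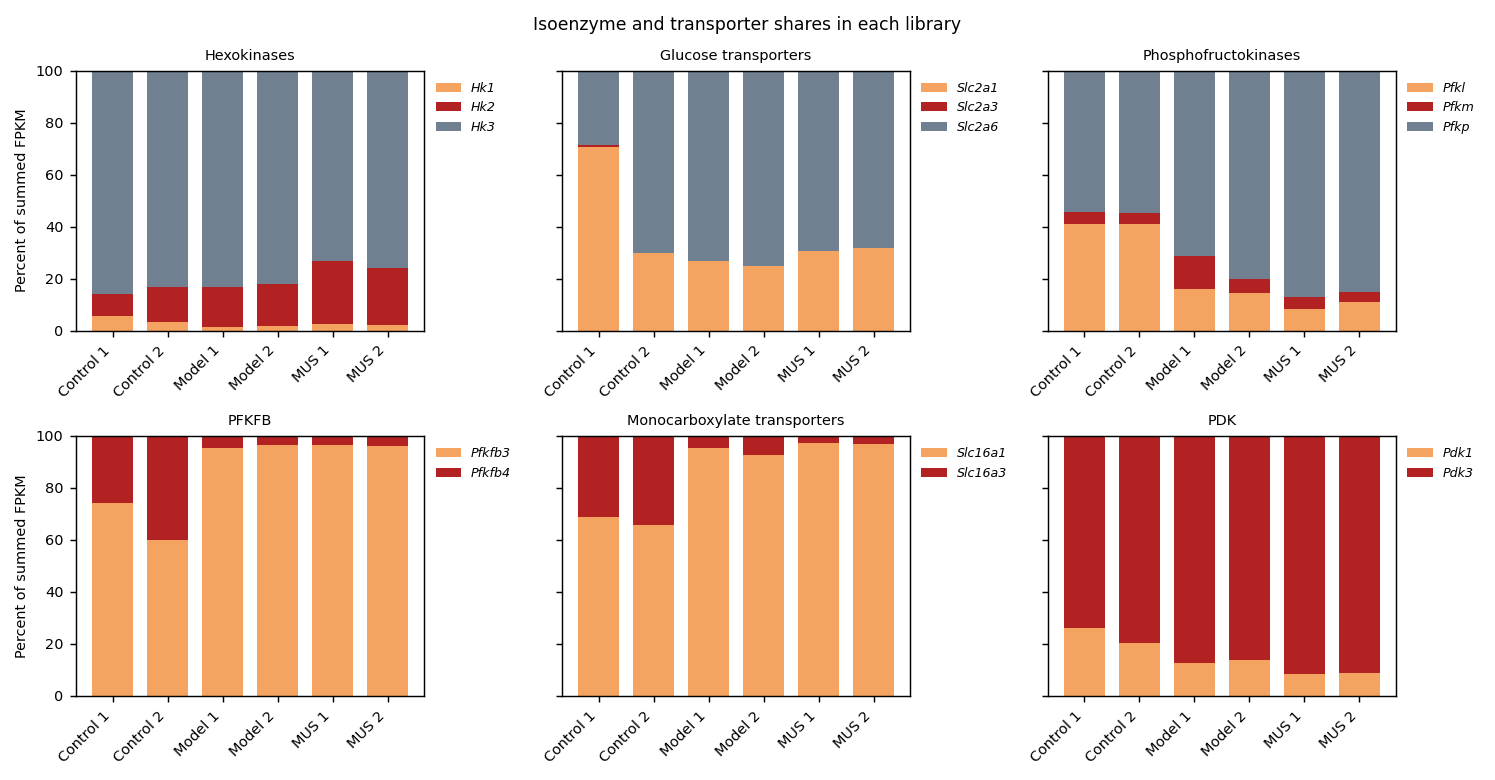
Share of each gene in the summed FPKM of those isoenzymes or related carriers that are members, in percent on the vertical axis, for the 6 libraries on the horizontal axis. Colours mark the genes named beside each panel. Pfkfb3, Slc16a1 and Pfkp take larger shares in all Model and MUS libraries than in Control, and Slc2a1 exceeds Slc2a6 only in Control replicate 1.

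Summed over the 34 members, the level was 1220 and 1189 FPKM in the Control libraries, 1283 and 1296 in the Model libraries and 1046 and 1248 in the MUS libraries. All sums here take Gapdh and the other members with much shared sequence at their listed levels, which are uncertain. As a percent of all FPKM of a library, the same sums were 0.522% and 0.500% under Control, 0.328% and 0.430% under Model and 0.323% and 0.409% under MUS conditions. The sum and the percent thus differ in direction between Model and Control, because the summed FPKM of all genes also differed between libraries, from 233863 to 391736. By role, the carriers summed to 39.1 and 124 FPKM in Control and 227 and 261 in Model, and the hexokinases to 91.5 and 95.1 in Control and 173 and 220 in Model. The enzymes from glucose phosphate to pyruvate summed to 612 and 497 FPKM in Control and 394 and 376 in Model, and the pentose phosphate genes to 288 and 326 in Control and 225 and 197 in Model. In MUS these 4 sums were 166 and 218, 169 and 215, 330 and 402, and 178 and 184 FPKM.

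Beyond the members, a list of 60 other isoenzymes, carriers and side-branch genes of sugar metabolism was counted in the same fit. Of these, 36 passed the filter. In Model vs. Control 0 of the 36 were upregulated and 3 downregulated, against 9.50% and 5.56% of all genes tested. The median log2 fold change of the 36 was -0.23. The 3 downregulated genes were Gpd1l, a relative of glycerol 3-phosphate dehydrogenase, Pgm2l1, which makes glucose 1,6-bisphosphate, and Slc16a7 (MCT2), a high-affinity monocarboxylate carrier. Gpd1l had 8.45 and 6.85 FPKM in the Control libraries, 2.75 and 2.76 in the Model libraries and 1.36 and 1.90 in the MUS libraries, with a log2 fold change of -1.20 (SE 0.22, adjusted p = 0.0132) in Model vs. Control. Pgm2l1 had 2.49 and 2.03 FPKM under Control, 0.444 and 0.411 under Model and 0.394 and 0.347 under MUS conditions. Slc16a7 had 3.42 and 2.39 FPKM in the Control libraries, 0.718 and 0.512 in the Model libraries and 0.743 and 0.816 in the MUS libraries. Their log2 fold changes were -1.19 and -1.26, with adjusted p-values of 0.016 and 0.0152.

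None of the 36 was a DEG in MUS vs. Model, where their median was -0.04 and the lowest adjusted p was 0.546. In MUS vs. Control 0 were upregulated and 5 downregulated, namely these 3, H6pd and Slc2a8. Over all genes tested the shares were 11.3% upregulated and 8.91% downregulated. H6pd, the hexose 6-phosphate dehydrogenase of the endoplasmic reticulum, had 7.38 and 8.58 FPKM under Control, 1.83 and 4.47 under Model and 2.68 and 3.504 under MUS conditions. Slc2a8 (GLUT8), an intracellular hexose carrier, had 4.61 and 2.34 FPKM in the Control libraries, 1.37 and 1.15 in the Model libraries and 0.165 and 0.480 in the MUS libraries. Their log2 fold changes in MUS vs. Control were -1.14 and -1.72, with adjusted p-values of 0.0459 and 0.00958.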

How the data were processed

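RNA of all 6 libraries was sequenced as poly-A libraries. The authors deposited 1 table of FPKM, quantified with RSEM according to the study's methods, while the submitters' processing notes name HISAT2, featureCounts 1.5.0-p3 and GRCm39. The table's gene coordinates match GENCODE M21 on GRCm38 for 98.3% of 54495 identifiers and for 34 of the 35 member rows. Fragments per gene were recovered, since FPKM multiplied by length gave whole steps (tolerance 0.1 of a step) in every library. The deposited per-million scale was 0.909 to 1.45 times the fragment totals and 1.05 to 1.07 times a median-of-ratios scale. Intervals and floors cover counting error only. 0 columns were without a sample.

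Genes with a mean of 1 FPKM or more (9794) were fitted as log2(FPKM + 1) with limma 3.58.1 in R 4.3.3 (lmFit, contrasts.fit, eBayes with trend), all 6 libraries in 1 model, with 3 residual and 4.04 prior degrees of freedom. p-values are two-sided and adjusted by Benjamini-Hochberg over all genes tested. Python 3.11.15 was used for tables (pandas 2.3.3, NumPy 2.4.6) and figures (Matplotlib 3.10.9). The fit was tested on simulated data. The thresholds are those of the study, whose DESeq2 test was not run here. Replicate numbers are batches in the labels, so libraries of the same number are paired. Replicate 1 minus replicate 2 correlated across genes between groups by 0.12 (Control with Model), 0.14 (MUS with Model) and -0.09 (MUS with Control), and the replicate block was an alternative. Other alternatives changed the filter, pseudocount, scaling, trend, groups fitted, gene-length dependence and libraries.

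All 34 members are accounted for. Values per library are given for members called in any comparison, for those with an unadjusted p under 0.05 in MUS vs. Model and for defining members of each step, plus Slc2a6, Pfkfb4, Pgk1 and Eno1b, chosen after their values were seen. The members and lists were chosen with earlier results of these data known. Copies were counted as 50-base stretches of transcripts shared with another gene of GENCODE M21.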

Additional observations from a re-analysis of the deposited data

How the results depend on the processing

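Slc16a1 was a DEG in Model vs. Control in all 19 alternatives, and no called member changed direction in any alternative run. The count of members called was 6 in Model vs. Control and 7 in MUS vs. Control in the reported fit. It varied with the library left out, as did the count over all genes tested. The members' median log2 fold change then ranged from -0.41 to -0.19 in Model vs. Control and from -0.59 to -0.24 in MUS vs. Control. The median in MUS vs. Model ranged from -0.29 to 0.01. Leaving out a library also leaves fewer degrees of freedom.

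In Model vs. Control, 2 members were called (2 up, 0 down) with only the compared groups fitted, 12 (9 down) with quantile normalization, 14 (2 up, 12 down, median -0.77) with fragment totals and 15 (2 up, 13 down, median -0.81) with a scale without mitochondrial and top 20 genes. Without a filter 1 member was called (1 up, 0 down, median -0.16), where 30192 genes were tested. voom on recovered fragments gave 4 down, and a mean of at least 5 FPKM a median of -0.13. Over all genes tested, 545 were downregulated in the reported fit, 256 with only the compared groups, 32 without a filter and 707 with voom. The count was 715 with quantile normalization, 1530 with fragment totals and 1776 with the scale without top genes. In MUS vs. Control the respective values were 15 called (11 down, median -0.75) with quantile normalization, 18 (15 down, median -0.93) with fragment totals, 17 (14 down, median -0.94) with the scale without top genes and 2 (1 up, 1 down, median -0.14) without a filter. voom gave 12 called (7 down), and the gene-length correction 13 (9 down) and 12 (8 down) with the replicate block added. TMM scaling gave 6 down and a pseudocount of 0.1 gave 5 down. Of all genes tested in MUS vs. Control, 873 were downregulated in the reported fit, 1102 with quantile normalization and 1922 with fragment totals. The scale without top genes gave 1964, voom 1107, the gene-length correction 1160, TMM scaling 974 and the pseudocount of 0.1 gave 986. The cause was not tested. Log2 fold changes in Model vs. Control turned below 0 for Pgk1 (-0.17, -0.10 and -0.01) and Ldha (-0.52, -0.27 and -0.19) with quantile normalization, without top genes and with fragment totals. The replicate block alone added Slc2a6 in Model vs. Control (5 up) and changed no other call of a member, with medians of -0.36, -0.13 and -0.46 in the 3 comparisons. No member was called in MUS vs. Model in any alternative.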
